A study of Mus musculus with 8 samples.

Results

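The expression of 9 genes for mitochondrial pyruvate and citrate metabolism was followed in 3T3-L1 cells, a mouse preadipocyte line that can be turned into fat-storing cells in culture. The genes are Pcx, Pdha1, Cs, Idh3a, Ogdh, Dlst, Suclg1, Mdh2 and Slc25a1. They were taken by symbol for their place in the pathway, and each matched 1 of the 49585 Ensembl gene IDs in the count table. All 9 had enough counts to be tested, among 15255 genes tested.

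RNA was sequenced from 4 groups of 2 libraries, all taken on day 7. The 3D induced and 3D uninduced cells grew as spheroids in hanging drops, 20000 cells in 28 µL, and the 2D induced and 2D uninduced cells grew flat. The inducing agents were troglitazone at 10 µM and insulin at 1 µg/ml for all 7 days, together with dexamethasone at 250 nM and triiodothyronine at 10 nM for the initial 2 days. Uninduced cultures had none of these. The protocol text is the same for every sample and names a high-glucose medium with calf serum, calcium pantothenate, methylcellulose and 8 mg/L biotin. The samples were prepared independently, but nothing says that they came from different dishes. The p-values therefore cover the variation among these samples alone, which may be technical. All come from 1 established cell line. The libraries held 14256216 and 16388954 counts (3D induced), 12562723 and 12981380 (3D uninduced), 11839374 and 15102312 (2D induced), and 21169390 and 14017630 (2D uninduced).

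Pyruvate from glucose enters the mitochondrial cycle by a pair of routes. Pyruvate carboxylase, a biotin enzyme encoded by Pcx, makes oxaloacetate, and the pyruvate dehydrogenase complex, whose catalytic alpha subunit is Pdha1, makes acetyl-CoA. Citrate synthase (Cs) joins the products to citrate. Citrate is either oxidised further in the cycle or leaves the mitochondrion through the carrier Slc25a1 to supply acetyl-CoA for fatty acid synthesis, so that in fat cells pyruvate carboxylase replaces the oxaloacetate that citrate export withdraws. Idh3a is the catalytic subunit of the NAD-dependent isocitrate dehydrogenase, Ogdh and Dlst are components of the oxoglutarate dehydrogenase complex, Suclg1 is a subunit of succinyl-CoA synthetase, and Mdh2 is the mitochondrial malate dehydrogenase that regenerates oxaloacetate.

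RefSeq promoter windows (GRCm38.p6, 250 bases before to 50 after a gene's start, 300 in all) were given for 8 of the 9 genes, not for Idh3a, and numbered 14 windows. Those of Pcx, Cs and Slc25a1 are printed, since Pcx and Cs were called with induction in flat culture and Slc25a1 between the induced cultures. Pcx has a pair of annotated starts 83847 bases apart, and counts per gene do not tell which was used. The first Pcx window is at chr19:4510222-4510521 on the plus strand, the second at chr19:4594069-4594368 on the plus strand, that of Cs at chr10:128337477-128337776 on the plus strand, and that of Slc25a1 at chr16:17928170-17928469 on the minus strand. Capitals mark CCAAT or, on the other strand, ATTGG.
Pcx, first start: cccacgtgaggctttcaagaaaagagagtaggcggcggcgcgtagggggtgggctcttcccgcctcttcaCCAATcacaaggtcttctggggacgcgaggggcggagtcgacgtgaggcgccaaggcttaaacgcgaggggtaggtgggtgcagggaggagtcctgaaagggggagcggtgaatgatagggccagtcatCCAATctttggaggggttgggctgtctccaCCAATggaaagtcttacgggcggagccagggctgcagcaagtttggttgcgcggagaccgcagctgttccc
Pcx, second start: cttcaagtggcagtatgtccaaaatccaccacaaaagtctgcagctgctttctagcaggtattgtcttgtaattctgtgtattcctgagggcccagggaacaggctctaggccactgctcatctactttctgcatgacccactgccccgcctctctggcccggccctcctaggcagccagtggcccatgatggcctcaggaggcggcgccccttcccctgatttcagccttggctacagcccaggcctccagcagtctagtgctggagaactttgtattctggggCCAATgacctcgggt
Cs: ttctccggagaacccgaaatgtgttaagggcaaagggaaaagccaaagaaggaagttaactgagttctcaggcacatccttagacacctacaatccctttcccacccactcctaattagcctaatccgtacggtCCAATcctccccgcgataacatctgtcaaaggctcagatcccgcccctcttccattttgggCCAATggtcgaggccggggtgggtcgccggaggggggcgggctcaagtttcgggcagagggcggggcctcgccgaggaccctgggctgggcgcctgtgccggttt
Slc25a1: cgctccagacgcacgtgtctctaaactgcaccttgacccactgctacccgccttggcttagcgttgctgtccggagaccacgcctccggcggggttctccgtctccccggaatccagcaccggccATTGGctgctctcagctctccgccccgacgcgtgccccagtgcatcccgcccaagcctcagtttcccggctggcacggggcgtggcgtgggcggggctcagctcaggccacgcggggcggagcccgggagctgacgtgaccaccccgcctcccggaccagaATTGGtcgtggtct

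CCAAT, on either strand, was found 3 times in the first Pcx window and 1 time in the second, 2 times in the Cs window and 2 times in the Slc25a1 window. It occurs in 37.4% of 32851 promoter windows of this length and in 10 of the 14 windows here, from 4 of the 8 genes (Pcx, Cs, Ogdh and Slc25a1). Of the 14 windows 6 are of Ogdh, and 5 of these share bases with another, so counts of windows hold some matches more than 1 time. The GC box GGGCGG, in 35.7% of all windows, was in 9 windows from 6 genes. It had 2 matches in the first Pcx window and none in the second. The E-box CACGTG (7.15% of all windows) was in 5 windows, of Pcx, Ogdh and Slc25a1. The cAMP response element TGACGTCA (1.79% of all windows) was in 4 windows, of Ogdh and Mdh2, and the NRF1 core GCGCATGCG (1.75%) in 2 windows of Ogdh. TCAAGGTCA, a longer nuclear receptor motif (0.423% of all windows), was in none. The CACGTG and TGACGTCA letters read the same on both strands, and the motifs do not contain one another. These are matches of letters in 300 bases and not sites shown to be used, and they were not set against the expression values.

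Levels are CPM, the usual count scaled to a common library size, here after TMM scaling. A fold change is log2 of the ratio ± its standard error in the model (n = 2 libraries per group). A gene was called when edgeR's quasi-likelihood test, with Benjamini-Hochberg adjustment over all 15255 genes, gave an adjusted p under 0.05 and the change was at least 2-fold. The libraries differed in more than their groups. Replicates of the 3D induced group varied most, with a biological coefficient of variation of 0.327 there, against 0.111 for 3D uninduced, 0.0473 for 2D induced and 0.0469 for 2D uninduced cultures. All groups share 1 spread per gene in the model. Errors and p-values may therefore be too small where 3D induced libraries are compared, and too large elsewhere. Counts from the mitochondrial genome made up 1.57 to 2.26% of the 3D libraries and 0.303 to 0.343% of the 2D libraries. The non-coding transcripts Gm26917 and Gm42418 held 1.13% of the second 3D induced library and 0.106 to 0.279% of the others. The part of these differences in the results was not tested.

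Defining fat cell markers were present and moved with the treatment. The summed level of 10 adipocyte markers was 4133 and 4642 CPM for 3D induced libraries, 1109 and 1464 CPM for 3D uninduced ones, 11050 and 10544 CPM for 2D induced ones and 1687 and 1725 CPM for 2D uninduced ones. Lpl held most of the uninduced sums, at 987 and 1342 CPM in 3D uninduced and 1601 and 1639 CPM in 2D uninduced libraries. All 10 markers were called higher with induction in 2D and 6 in 3D, and 9 were called lower in 3D induced than in 2D induced cultures. Without induction, Plin1, Cd36 and Lipe were called higher in 3D than in 2D, and 0 of the 10 were called lower. The sum of 5 preadipocyte and fibroblast markers was 12386 and 4420 CPM for 3D induced libraries, 9480 and 10816 CPM for 3D uninduced ones, 16468 and 15987 CPM for 2D induced ones and 26405 and 27155 CPM for 2D uninduced ones. Of other cell types the cultures could hold, 4 macrophage markers summed to 13.3 to 24.6 CPM in 3D libraries and 7.46 to 11.1 CPM in 2D libraries, with Ptprc and Adgre1 at 0 in all 8. Among them Cd68 was called higher in 3D induced than in 2D induced cultures, at 3.45 and 10.6 CPM in 3D induced libraries, against 0.536 and 0.560 CPM in 2D induced libraries. The 4 cartilage markers summed to 90.9 to 143 CPM in 3D libraries and 59.3 to 83.8 CPM in 2D libraries, nearly all of it Sox9. Endothelial markers were at 0.0893 to 1.93 CPM and muscle markers at 2.18 to 7.21 CPM, with Myog at 0 in all 8 libraries. The part of these markers in the differences between cultures was not tested. In bulk RNA, fewer fat cells and less RNA of a gene per fat cell cannot be told apart, which holds for every value below.

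**Figure D1:**
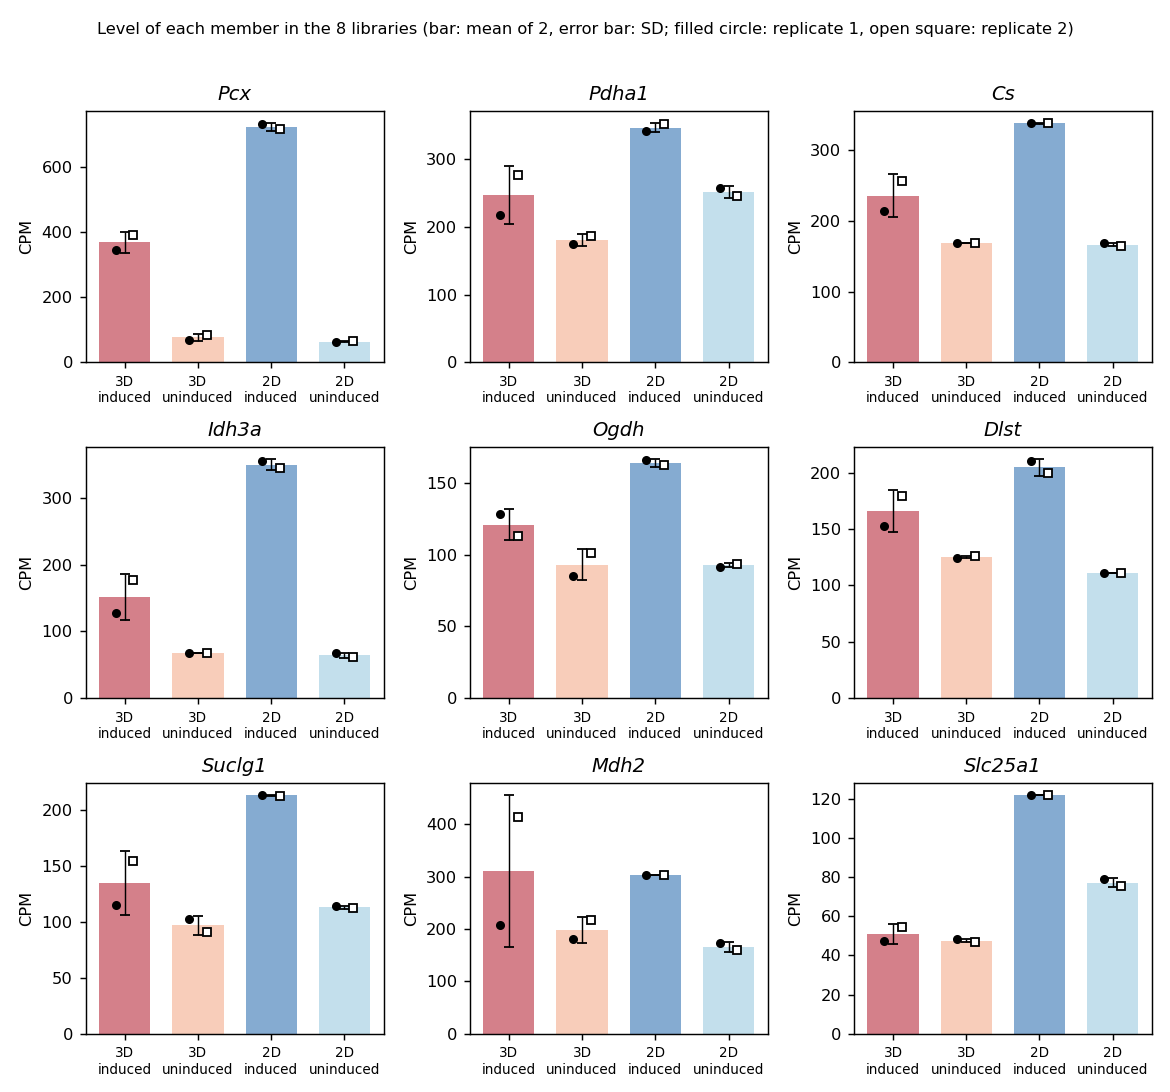
Level of each of the 9 genes in CPM on the vertical axis, by group on the horizontal axis, with bars for the mean of 2 libraries, error bars for the SD, a filled circle for replicate 1 and an open square for replicate 2. All genes but Mdh2 stand highest in 2D induced libraries, Mdh2 differs most between the 3D induced replicates, and Slc25a1 is lower in all 3D than in all 2D libraries.

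Pcx had the largest response of the 9 genes to induction in both cultures. Its gene (ENSMUSG00000024892) lies on chromosome 19 from 4510472 to 4621752 on the plus strand of GRCm38 in GENCODE vM21. Pcx was at 345 and 390 CPM in 3D induced libraries, against 69.3 and 84.8 CPM in 3D uninduced libraries. In flat culture it was at 730 and 714 CPM in induced libraries, against 61.8 and 63.8 CPM in uninduced libraries. All induced libraries thus lay above all uninduced ones, and the 3D induced libraries lay between the 2D induced and all uninduced ones. Pcx rose with induction by 2.25 ± 0.13 on the log2 scale in 3D, 4.77-fold (adjusted p = 0.000558, edgeR), and by 3.52 ± 0.14 in 2D, 11.5-fold (adjusted p = 3.3e-05, edgeR). The 2D call held under all alternatives tried. The 3D call was lost when the model was fitted to the 4 3D libraries alone, with a log2 fold change of 2.23 and an adjusted p of 0.0642 (edgeR).

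Pdha1 (ENSMUSG00000031299) lies on chromosome X from 160122209 to 160138413 on the minus strand. It was at 217 and 277 CPM in 3D induced libraries, against 174 and 187 CPM in 3D uninduced libraries. In flat culture Pdha1 was at 342 and 351 CPM in induced libraries, against 258 and 245 CPM in uninduced libraries. Groups did not overlap within either culture, but the changes were under 2-fold and neither was called. The log2 fold change of Pdha1 with induction was 0.45 ± 0.13 in 3D (adjusted p = 0.174, edgeR) and 0.46 ± 0.13 in 2D (adjusted p = 0.0748, edgeR). Fitted to the 4 flat libraries alone, whose replicates varied less, the 2D value had an adjusted p of 1.1e-08 (edgeR) and was still under 2-fold.

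The Pdha1 count may include reads of another gene. Map3k15, a kinase gene on the plus strand from 159988433 to 160123351 on chromosome X, shares 603 exon bases with Pdha1. Over the 8 libraries Map3k15 had 8322 counts and Pdha1 30151. The strand setting of the counting is not given in the sources used here, so reads of the shared bases cannot be assigned. The log2 fold changes of Map3k15 were 0.41 in 3D and 0.40 in 2D with induction, and -0.46 for 3D against 2D with induction, close to those of Pdha1. None of the other 8 genes shared exon bases with another annotated gene.

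The balance of both entry enzymes was read as the ratio of Pcx to Pdha1 counts per exon length within each library, which does not depend on the scaling between libraries. The ratio was 1.25 and 1.10 in 3D induced libraries, against 0.313 and 0.356 in 3D uninduced libraries. In flat culture it was 1.678 and 1.597 in induced libraries, against 0.189 and 0.204 in uninduced libraries. With the lengths used here, Pcx was therefore above Pdha1 per length in every induced library and below it in every uninduced one. The side of 1 depends on these lengths, the union of all annotated exons, and on any Map3k15 reads in the Pdha1 count. The differences between groups do not depend on the lengths. On the log2 scale the group means were 0.23 ± 0.13 for 3D induced, -1.58 ± 0.13 for 3D uninduced, 0.71 ± 0.05 for 2D induced and -2.35 ± 0.08 for 2D uninduced cultures (SD, n = 2). The induced and uninduced means differed by 1.81 in 3D and by 3.06 in 2D. No test was run on the ratio.

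**Figure D2:**
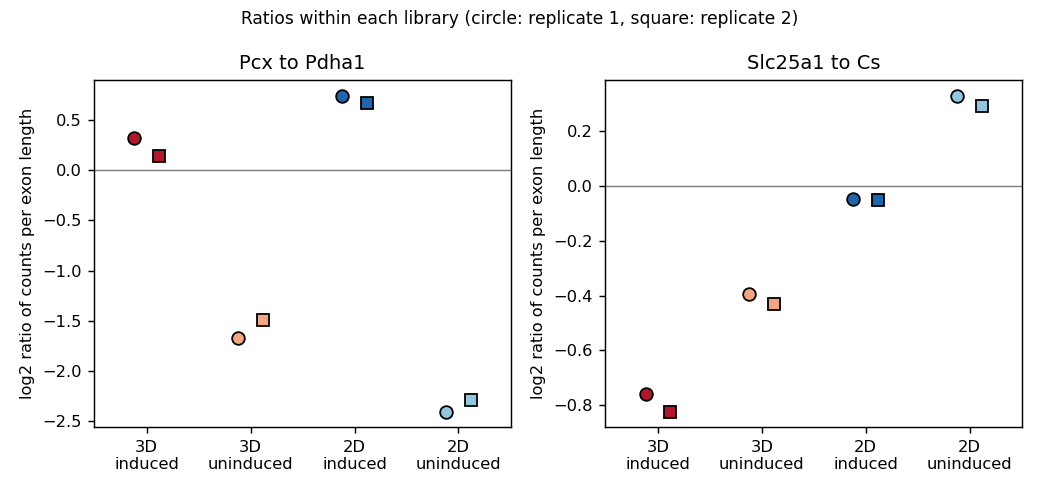
Log2 ratio of counts per exon length within each library on the vertical axis, Pcx to Pdha1 in the left panel and Slc25a1 to Cs in the right, by group on the horizontal axis (circle for replicate 1, square for replicate 2). The Pcx to Pdha1 ratio is above 0 in the 4 induced libraries, and the Slc25a1 to Cs ratio is lowest in the 3D induced libraries, at -0.76 and -0.82.

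Cs and Idh3a catalyse successive parts of the cycle at its start. Cs (ENSMUSG00000005683, chromosome 10 from 128337734 to 128362479, plus strand) was at 214 and 257 CPM in 3D induced libraries, against 169.1 and 168.6 CPM in 3D uninduced libraries. In flat culture Cs was at 337.6 and 338.0 CPM in induced libraries, against 168 and 165 CPM in uninduced libraries. The uninduced libraries of both cultures lay within a few CPM of each other, and all induced libraries lay above them. With induction Cs rose in 2D by 1.02 ± 0.11 on the log2 scale (adjusted p = 0.00191, edgeR), just past the 2-fold minimum. Its 3D log2 fold change was 0.48 ± 0.11 (adjusted p = 0.103, edgeR), which was not called. The 2D call of Cs was lost without any 1 of the 4 flat libraries, at 0.99 and 0.98 without the first and the second induced library and 0.99 and 0.97 without the first and the second uninduced one, with an adjusted p of up to 0.0532 (edgeR).

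Idh3a (ENSMUSG00000032279, chromosome 9 from 54586334 to 54604661, plus strand) was at 128 and 177 CPM in 3D induced libraries, against 67.2 and 68.1 CPM in 3D uninduced libraries. In flat culture Idh3a was at 357 and 345 CPM in induced libraries, against 67.1 and 61.6 CPM in uninduced libraries. The order of the groups was that of Pcx, with the 3D induced libraries between the 2D induced and the uninduced ones. Idh3a rose with induction by 1.17 ± 0.16 on the log2 scale in 3D, 2.25-fold (adjusted p = 0.0176, edgeR), and by 2.45 ± 0.16 in 2D, 5.45-fold (adjusted p = 0.000185, edgeR). The 2D call held under all alternatives. The 3D call was less firm: without the second 3D induced library the log2 fold change was 0.91, and with the 4 3D libraries alone it was 1.15 with an adjusted p of 0.329 (edgeR). It was also lost without any 1 of the 4 flat libraries (1.15 each, adjusted p 0.0685 to 0.0774, edgeR) or either 3D uninduced library (1.16 and 1.18, adjusted p 0.205 and 0.160, edgeR).

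Ogdh, Dlst, Suclg1 and Mdh2 act in the later steps, and none was called with induction at the 2-fold minimum. Ogdh (ENSMUSG00000020456, chromosome 11 from 6291633 to 6356642, plus strand) was at 129 and 113 CPM in 3D induced libraries, against 85.4 and 101 CPM in 3D uninduced libraries. In flat culture Ogdh was at 166 and 162 CPM in induced libraries, against 91.6 and 93.7 CPM in uninduced libraries. The log2 fold change of Ogdh with induction was 0.38 ± 0.12 in 3D (adjusted p = 0.215, edgeR) and 0.83 ± 0.12 in 2D (adjusted p = 0.00606, edgeR). Groups did not overlap in either culture.

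Dlst (ENSMUSG00000004789, chromosome 12 from 85110833 to 85134845, plus strand) was at 153 and 179 CPM in 3D induced libraries, against 125 and 126 CPM in 3D uninduced libraries. In flat culture Dlst was at 210 and 200 CPM in induced libraries, against 110.8 and 111.1 CPM in uninduced libraries. Its log2 fold change was 0.41 ± 0.11 in 3D (adjusted p = 0.144, edgeR) and 0.88 ± 0.11 in 2D (adjusted p = 0.00316, edgeR). Dlst and Ogdh, which work in 1 enzyme complex, thus had log2 fold changes that differed by less than their standard errors, 0.41 for Dlst and 0.38 for Ogdh in 3D and 0.88 and 0.83 in 2D.

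Suclg1 (ENSMUSG00000052738, chromosome 6 from 73248382 to 73276911, plus strand) was at 115 and 155 CPM in 3D induced libraries, against 103 and 91.2 CPM in 3D uninduced libraries. In flat culture Suclg1 was at 214.0 and 213.4 CPM in induced libraries, against 114 and 113 CPM in uninduced libraries. Its log2 fold change was 0.48 ± 0.15 in 3D (adjusted p = 0.209, edgeR) and 0.91 ± 0.15 in 2D (adjusted p = 0.0101, edgeR). Here too the induced libraries lay above the uninduced ones of the same culture. The 3D value was 0.68 without the first 3D induced library and 0.24 without the second.

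Mdh2 (ENSMUSG00000019179, chromosome 5 from 135778480 to 135790398, plus strand) differed most between replicates. It was at 208 and 414 CPM in 3D induced libraries, against 181 and 216 CPM in 3D uninduced libraries, and these groups overlapped. In flat culture Mdh2 was at 303.3 and 302.9 CPM in induced libraries, against 172 and 159 CPM in uninduced libraries. Its log2 fold change was 0.65 ± 0.28 in 3D (adjusted p = 0.400, edgeR) and 0.87 ± 0.28 in 2D (adjusted p = 0.105, edgeR). The 3D value rested on the second induced library: without it the log2 fold change was 0.06, and without the first induced library it was 1.06 and called. Since all groups share 1 spread per gene, the 3D induced replicates also set the error of the 2D value, whose adjusted p was 1.1e-13 with the 4 flat libraries alone (edgeR).

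Slc25a1, the mitochondrial citrate carrier (ENSMUSG00000003528, chromosome 16 from 17925223 to 17928219, minus strand), was at 47.4 and 54.4 CPM in 3D induced libraries, against 48.2 and 46.9 CPM in 3D uninduced libraries. In flat culture Slc25a1 was at 122.1 and 122.1 CPM in induced libraries, against 79.0 and 75.4 CPM in uninduced libraries. The 3D groups overlapped and the 2D groups did not, and every 3D library lay below every 2D library. The log2 fold change of Slc25a1 with induction was 0.10 ± 0.11 in 3D (adjusted p = 0.809, edgeR) and 0.66 ± 0.11 in 2D (adjusted p = 0.00985, edgeR), under the 2-fold minimum.

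The citrate carrier was set against citrate synthase by the same kind of ratio per exon length. The log2 ratio of Slc25a1 to Cs was -0.76 and -0.82 in 3D induced libraries, against -0.39 and -0.43 in 3D uninduced libraries. In flat culture it was -0.05 and -0.05 in induced libraries, against 0.33 and 0.29 in uninduced libraries. The ratio was lower with induction than without in both cultures, by -0.38 in 3D and -0.36 in 2D, and lower in 3D than in 2D, by -0.74 with induction and -0.72 without. The 4 groups did not overlap. No test was run on this ratio.

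For induction, the calls were counted over the 9 genes. In 3D, 2 of the 9 genes were called higher, Pcx and Idh3a, beside 0.583% of all genes tested called higher and 0.911% in either direction. In 2D, 3 of the 9 were called higher, Pcx, Idh3a and Cs, beside 3.17% of all genes tested called higher and 4.52% in either direction. With an adjusted p under 0.05 and no fold minimum, 2 were higher in 3D (0.859% of all genes) and 7 in 2D (5.91% of all genes), the 7 being all but Pdha1 and Mdh2. The median log2 fold change of the 9 genes was 0.48 in 3D and 0.88 in 2D, and the median over all genes tested was 0.04 in 3D and 0.00 in 2D. The 3D median of the 9 was 0.62 without the first 3D induced library and 0.29 without the second. All 9 log2 fold changes were above 0 in both cultures, except that Slc25a1 in 3D was at -0.0077 without the second 3D induced library. Induced libraries lay wholly above uninduced ones for 7 of the 9 in 3D, where 18% of all genes did so, and for 9 of 9 in 2D, where 35.1% did.

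**Figure D3:**
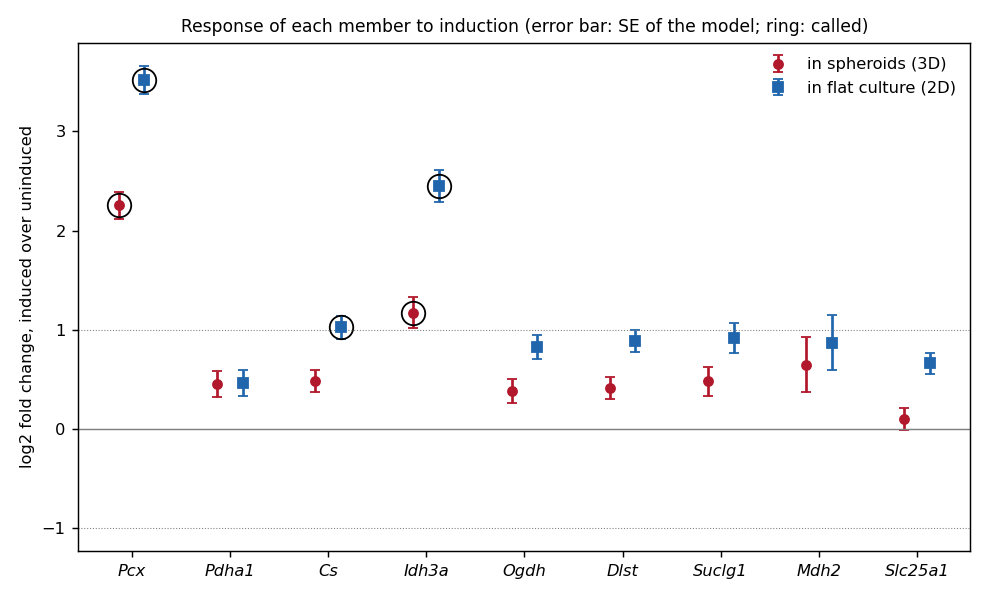
Log2 fold change of induced over uninduced cultures on the vertical axis for each of the 9 genes, in spheroids (circles) and in flat culture (squares), with error bars for the standard error of the model and rings for called genes. Pcx at 2.25 in 3D and 3.52 in 2D and Idh3a at 1.17 in 3D and 2.45 in 2D lie above the other genes, and Pdha1 has nearly the same value in both cultures.

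The interaction, which is the 3D response minus the 2D response, was below 0 for all 9 genes, with a median of -0.48 against 0.02 over all genes tested. Without the first 3D induced library Pdha1 was at 0.17 and Mdh2 at 0.20. Of the 9, only Pcx was called, lower in 3D by -1.27 ± 0.18 on the log2 scale (adjusted p = 0.0379, edgeR), beside 0.341% of all genes called lower and 0.38% in either direction. This call was lost without either 2D uninduced library (-1.23 and -1.27, adjusted p 0.381 and 0.279, edgeR), either 2D induced library (-1.24 and -1.26, adjusted p 0.312 and 0.276, edgeR) or either 3D uninduced library (-1.40 and -1.12, adjusted p 0.133 and 0.174, edgeR). The value for Idh3a was -1.28 ± 0.22 (adjusted p = 0.0775, edgeR), not called. It was called without the first 3D induced library (-1.05) or the second (-1.52), and with DESeq2 (-1.27), limma-voom with group weights (-1.29) and no filter on low counts (-1.28). For Slc25a1 the value was -0.56 ± 0.15 (adjusted p = 0.311, edgeR), for Cs -0.54 ± 0.16 (adjusted p = 0.371, edgeR) and for Pdha1 -0.01 ± 0.19 (adjusted p = 0.999, edgeR). The remaining 4 genes had values of -0.48 to -0.22, not called. The adipocyte markers were also lower in this comparison, with a median of -2.78 and 3 of 10 called (Plin1, Cebpa and Lipe). Of these, Plin1 and Lipe were also called higher in 3D than in 2D without induction, a difference that enters their interaction. The part of the markers in the values of the 9 genes was not tested.

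Spheroids were then compared with flat cultures directly, with and without induction. With induction, 2 of the 9 genes were called lower in 3D, Idh3a and Slc25a1, beside 5.46% of all genes tested called lower and 12.4% in either direction. Slc25a1 fell by 1.26 ± 0.11 on the log2 scale (adjusted p = 0.000594, edgeR), a call that held under all alternatives. Idh3a fell by 1.20 ± 0.15 (adjusted p = 0.00207, edgeR), with -0.98 and no call without the first 3D induced library. Pcx had -0.97 ± 0.13 (adjusted p = 0.00212, edgeR), just under the 2-fold minimum, and was called at -1.06 without the second 3D induced library.

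The other genes differed less between induced cultures. Suclg1 had a log2 fold change of -0.66 ± 0.15 (adjusted p = 0.0152, edgeR), Cs -0.52 ± 0.11 (adjusted p = 0.0134), Pdha1 -0.49 ± 0.13 (adjusted p = 0.0297) and Ogdh -0.44 ± 0.12 (adjusted p = 0.0293). Dlst had -0.30 ± 0.11 (adjusted p = 0.0736, edgeR), and Mdh2 had 0.04 ± 0.28 (adjusted p = 0.931, edgeR), with both 2D induced levels between the 3D induced ones. Mdh2 was at 0.46 without the first 3D induced library and -0.54 without the second. With no fold minimum, 7 of the 9 were lower in 3D, beside 14% of all genes. The median of the 9 was -0.52, against 0.03 over all genes tested, and 3D induced libraries lay wholly below 2D induced ones for 8 of the 9, beside 31.2% of all genes. The adipocyte markers had a median of -1.73 in the same comparison.

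Without induction, none of the 9 genes was called between spheroids and flat cultures, beside 9.44% of all genes tested in either direction and 4.02% lower. Unadjusted p-values under 0.05 were given for 2 of the 9 by edgeR (5548 of all genes tested) and 2 by DESeq2 (4911). They were given for 6 by limma-voom with group weights (7820) and 5 by edgeR on the 4 libraries alone (7643). Each of these fits called 0 of the 9. Slc25a1 came nearest, at -0.70 ± 0.11 on the log2 scale (adjusted p = 0.00494, edgeR), followed by Pdha1 at -0.48 ± 0.13 (adjusted p = 0.0403, edgeR). With no fold minimum these were the 2 lower genes, beside 10.2% of all genes. Pcx had 0.30 ± 0.13 (adjusted p = 0.142, edgeR), and Cs, Idh3a and Ogdh had log2 fold changes of 0.02, 0.07 and 0.01. The 3D uninduced libraries lay wholly above the 2D uninduced ones for 5 of the 9 and wholly below for 3, beside 38.1% and 35.2% of all genes. Over the 9 genes the median was 0.02, and 0.03 over all genes tested.

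**Figure D4:**
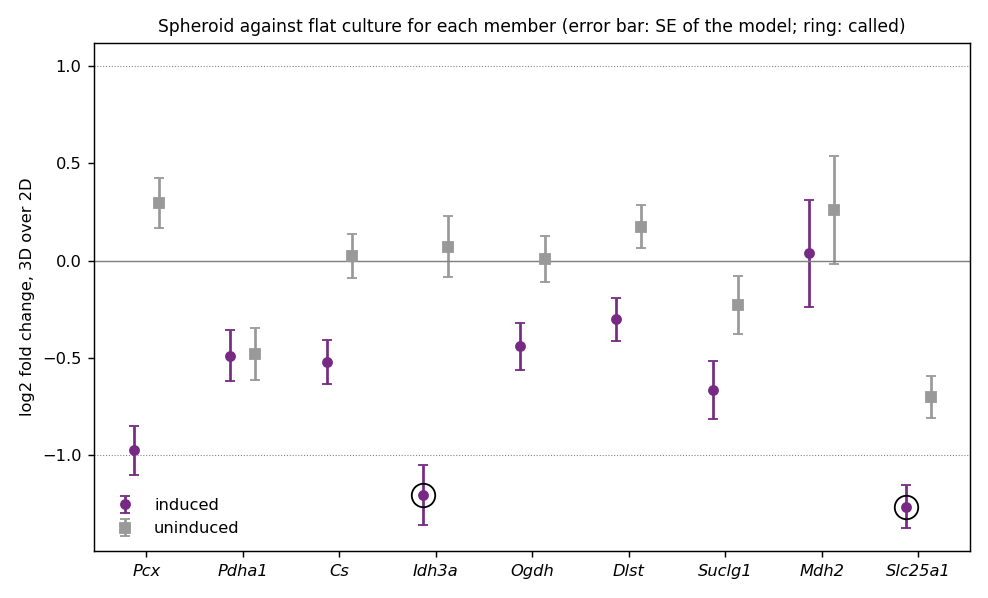
Log2 fold change of 3D over 2D cultures on the vertical axis for each of the 9 genes, induced (circles) and uninduced (squares), with error bars for the standard error of the model and rings for called genes. Slc25a1, Pdha1 and Suclg1 are below 0 in both, while Pcx, Cs, Idh3a, Ogdh and Dlst are below 0 with induction and between 0.01 and 0.30 without, where Ogdh was at -0.0082 with DESeq2 size factors.

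The order of the 9 genes by level was compared per exon length, as CPM per kilobase. In 3D induced cultures Mdh2 (87.3 ± 40.9), Pcx (77.3 ± 6.60) and Pdha1 (66.2 ± 11.4) stood highest, and the values of Pcx overlapped those of both others (SD, n = 2). Lengths are the union of all annotated exons, so genes with many unused exons read low. In 3D uninduced cultures Mdh2 (55.7) and Pdha1 (48.4) led, and Pcx was seventh at 16.2 with values overlapping those of Ogdh. In 2D induced cultures Pcx led at 152 ± 2.39, followed by Pdha1 at 92.8 and Mdh2 at 85.1, and no neighbours overlapped. In 2D uninduced cultures Pdha1 (67.3) and Mdh2 (46.6) led, and Pcx was again seventh, at 13.2, overlapping Idh3a at 12.7. Dlst was lowest per length in every group, at 11.6 to 21.4 CPM per kilobase, and in 3D uninduced cultures its neighbour Idh3a was at 13.3.

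The rest of the pathway was counted in 7 lists of 64 genes, of which 63 were tested. Over these lists 4 genes were called higher with induction in 3D and 14 in 2D, beside 0.583% and 3.17% of all genes tested. None was called lower in either, and the medians were 0.36 in 3D and 0.56 in 2D. Fitted to the 4 3D libraries alone, 0 of all genes tested were called with induction, so these 3D calls were lost there. Between spheroids and flat cultures 7 list genes were called lower with induction and 6 without, beside 5.46% and 4.02% of all genes tested. None was called higher. These counts describe the lists, which were drawn up with earlier results of these data known.

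Among the 13 other genes of pyruvate entry (subunits of pyruvate dehydrogenase, its kinases and phosphatases, and the mitochondrial pyruvate carriers), 0 were called with induction in 3D (edgeR, 8 with an unadjusted p under 0.05) and 5 were called higher in 2D. The 5 were Pdhb (1.51 ± 0.24), the beta partner of Pdha1, the carrier subunit Mpc1 (1.31 ± 0.17), the complex components Pdhx (1.20 ± 0.22) and Dld (1.04 ± 0.18), and the kinase Pdk1 (1.09 ± 0.14), which inhibits the complex. Pdhb was at 79.1 and 142 CPM in 3D induced libraries, against 54.3 and 57.5 CPM in 3D uninduced libraries. In flat culture Pdhb was at 173 and 167 CPM in induced libraries, against 57.8 and 61.7 CPM in uninduced libraries. The list's median log2 fold change was 0.48 in 3D and 0.93 in 2D. Pdk1 was lower in 3D than in 2D both with induction, by -1.90 ± 0.14 (adjusted p = 0.000363, edgeR), and without, by -1.08 ± 0.14 (adjusted p = 0.00271, edgeR). The phosphatase Pdp1, which reactivates the complex, was lower in 3D than in 2D without induction, by -1.17 ± 0.13 (adjusted p = 0.00167, edgeR).

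Of the 11 remaining enzymes of the cycle, 0 were called with induction in 3D (edgeR, 8 with an unadjusted p under 0.05), and Fh1, the fumarase, was called higher in 2D at 1.02 ± 0.15 (adjusted p = 0.00643, edgeR). All 11 log2 fold changes were above 0 in both cultures, with medians of 0.50 in 3D and 0.62 in 2D. Idh2, the NADP-dependent mitochondrial isocitrate dehydrogenase, was called lower in 3D than in 2D both with induction, by -1.53 ± 0.14, and without, by -1.42 ± 0.14. Idh2 was at 206 and 159 CPM in 3D induced libraries, against 130 and 128 CPM in 3D uninduced libraries. In flat culture it was at 515 and 541 CPM in induced libraries, against 338 and 350 CPM in uninduced libraries. Idh2 was thus lower in every 3D library than in every 2D library, while Idh3a had a log2 fold change of 0.07 ± 0.16 (adjusted p = 0.778, edgeR) between the uninduced groups.

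Cytosolic use of citrate and malate was followed in 7 genes. Slc25a10, the dicarboxylate carrier that exchanges malate, was called higher with induction in both cultures, at 1.06 ± 0.19 in 3D (adjusted p = 0.0497, edgeR) and 2.30 ± 0.20 in 2D (adjusted p = 0.000582, edgeR). The 3D call lay close to both thresholds. Slc25a10 was at 93.9 and 146 CPM in 3D induced libraries, against 59.2 and 56.0 CPM in 3D uninduced libraries. In 2D the cytosolic aconitase Aco1 (1.30 ± 0.11) and the cytosolic malate dehydrogenase Mdh1 (1.19 ± 0.13) were also called higher. Acly, which splits cytosolic citrate to acetyl-CoA, was at 199 and 190 CPM in 3D induced libraries, against 197 and 181 CPM in 3D uninduced libraries. In flat culture Acly was at 177 and 166 CPM in induced libraries, against 200 and 195 CPM in uninduced libraries. Its log2 fold change was 0.04 ± 0.10 in 3D and -0.20 ± 0.10 in 2D (adjusted p = 0.924 and 0.279, edgeR), neither called. In the list of fatty acid synthesis genes (7, of which 6 were tested), 2 were called higher in each culture. These were Thrsp in both, Acss2 in 3D (1.03 ± 0.19, adjusted p = 0.0497, edgeR), and the desaturase Scd1 in 2D (2.60 ± 0.11, adjusted p = 3.4e-05, edgeR). Thrsp, a regulator of fat synthesis, had 37 and 62 counts in 3D induced libraries, against 0 and 1 in 3D uninduced libraries. In flat culture Thrsp had 186 and 264 counts in induced libraries, against 3 and 2 in uninduced libraries. Scd1 was at 161 and 149 CPM in 3D induced libraries, against 117 and 112 CPM in 3D uninduced libraries. In flat culture Scd1 was at 462 and 432 CPM in induced libraries, against 71.6 and 75.6 CPM in uninduced libraries. Beside Pcx, Scd1 was called in the interaction, by -2.17 ± 0.14 (adjusted p = 0.00316, edgeR), the single call among the 63 tested genes of these lists. The fatty acid synthase gene Fasn had log2 fold changes with induction of 0.36 ± 0.14 in 3D and 0.67 ± 0.15 in 2D, neither called. Between spheroids and flat cultures, Scd1 (-1.53 ± 0.10) and Thrsp (-2.51 ± 0.29) were called lower in 3D with induction. Elovl6, of the same list, was called lower in 3D without induction (-1.09 ± 0.30).

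In the 10 genes of other routes that fill or drain the cycle, 0 were called with induction in 3D (edgeR, 1 with an unadjusted p under 0.05) and 1 in 2D. Pck1, the cytosolic enzyme that withdraws oxaloacetate for glyceride-glycerol and glucose synthesis, had 21 and 32 counts in 2D induced libraries and 0 in the other 6. A floor of 3 counts, summed over a group's libraries, was put in place of a count of 0. Against this floor Pck1 was 23.1-fold higher in 2D induced than in 2D uninduced cultures. It was 22.1-fold lower in 3D induced than in 2D induced cultures. These ratios do not allow for the sampling error of the 2D induced counts. Its mitochondrial relative Pck2 was lower in 3D than in 2D with induction (-1.40 ± 0.19, adjusted p = 0.00246, edgeR) and without (-1.09 ± 0.19, adjusted p = 0.00747, edgeR). The malic enzyme Me3 was called lower in 3D than in 2D without induction (-4.31 ± 0.59), at a level of 0.221 and 0.0727 CPM in 3D uninduced libraries, against 3.33 and 2.79 CPM in 2D uninduced libraries. Of 8 other biotin enzymes and enzymes of biotin handling, such as Acaca, Pcca and Hlcs, 0 were called with induction in 3D (edgeR, 3 with an unadjusted p under 0.05) or in 2D (edgeR, 6), with medians of 0.27 in 3D and 0.55 in 2D. Pcx, at 2.25 in 3D and 3.52 in 2D, was the one gene called with induction among it and these 8. Among 8 regulators of mitochondrial biogenesis, the coactivator Ppargc1b was called higher with induction in 3D (1.81 ± 0.29) and 2D (2.47 ± 0.28), and the nuclear receptor Esrra in 2D (1.06 ± 0.15). Ppargc1b was also called lower in 3D induced than in 2D induced cultures (-1.02 ± 0.25).

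**Figure D5:**
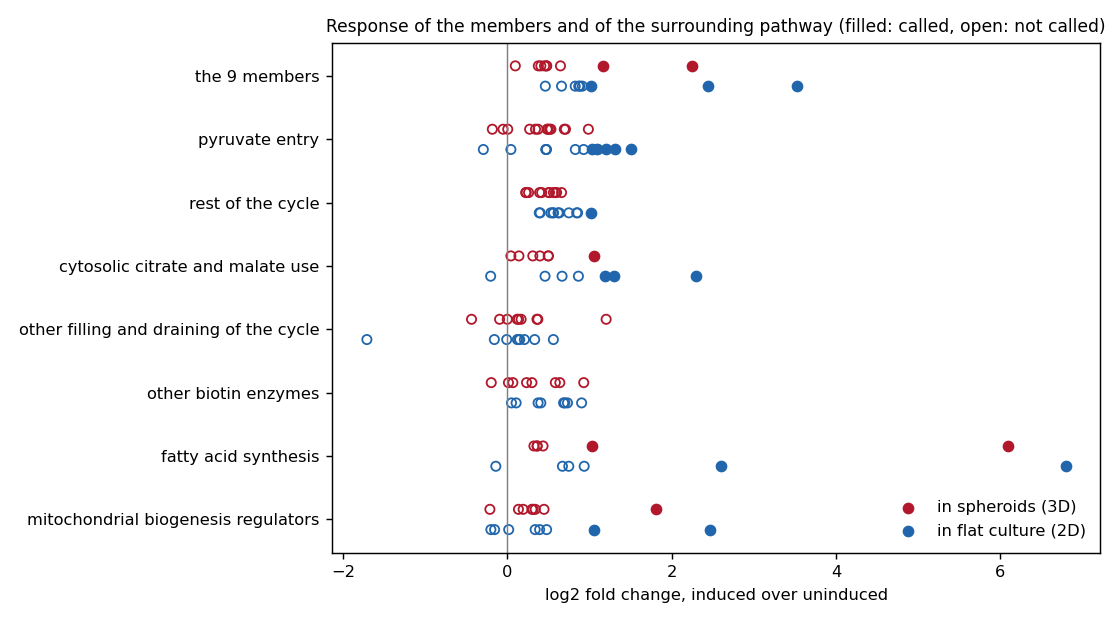
Log2 fold change of induced over uninduced cultures on the horizontal axis for the 9 genes and for each gene of the 7 pathway lists in rows, in spheroids (upper points of a row) and flat culture (lower points), filled where called and open where not. Pck1 is left out because its level was 0 in 6 libraries. Called genes lie to the right of 1 in every row that has any. Over all rows more of them are in flat culture, while fatty acid synthesis has 2 in each culture.

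Across the 8 libraries the 9 genes varied with the fat cell markers to different degrees. Pearson's r of log2 CPM with the mean of the 10 adipocyte markers was 0.995 for Pcx, 0.992 for Dlst, 0.981 for Idh3a, 0.975 for Cs, 0.944 for Ogdh, 0.879 for Suclg1, 0.829 for Mdh2, 0.719 for Pdha1 and 0.505 for Slc25a1. These 8 points fall into 4 groups that share treatment and culture, so r describes the groups' pattern and carries no p. Between members, r was highest for Cs and Idh3a (0.999) and lowest for Mdh2 and Slc25a1 (0.263). Of all genes tested, those with the pattern most like Pcx were Fabp4, the fatty acid binding protein of fat cells (r = 0.995), Abhd17b (0.995), the adiponectin receptor Adipor2 (0.994), Oxsr1 (0.992) and Sik2 (0.992). Cfd, which encodes the fat cell protease adipsin, and Acads, a fatty acid oxidation enzyme, were among the 5 genes most like both Cs (r = 0.998 and 0.997) and Idh3a (0.995 each). Cfd had 4 and 14 counts in 3D induced and 29 and 52 in 2D induced libraries and 0 in the other 4, so its r rests on low counts and on the prior count of 2 used for log2 CPM. For Dlst the list held Txlng (0.999) and Slc25a10 (0.997), for Suclg1 Uqcrc2 (0.991), for Mdh2 Naa50 (0.991), for Ogdh Tmem53 (0.993), and for Pdha1 Oaz3 (0.995) and its overlapping neighbour Map3k15 (0.988). Slc25a1 was most like Ero1l (0.993), a protein-folding oxidase of the endoplasmic reticulum, with the glycolytic kinase Pgk1 (0.989) also among its 5.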

How the data were processed

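RNA was sequenced from 8 libraries of 3T3-L1 cells with a directional kit, per the labels' protocols. The deposited table holds raw counts of reads per Ensembl gene, not normalized by the authors. The submitters' processing notes name build mm10, HISAT2 2.1.0, featureCounts 1.6.3, Trimmomatic 0.38 and FastQC 0.11.7. Not given in the sources used here are their settings, the strand option and the annotation release. Count columns of 2D uninduced libraries carry the numbers 2 and 3 where the sample titles have 1 and 2, which are followed here.

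Symbols, positions and exon lengths (union of annotated exons) came from GENCODE vM21, which gave 49326 of 49585 genes a symbol. Counts of genes without one made up 0.0285%. Analysis used R 4.3.3 with edgeR 4.0.16, limma 3.58.1 and DESeq2 1.42.0. Genes were kept by filterByExpr (minimum count 10), libraries were scaled by TMM, and 1 CPM stood for 11.2 to 20.1 counts. The quasi-likelihood test (robust, two-sided, 1 mean per group, 4 residual degrees of freedom) used all 8 libraries for the 5 comparisons, as the groups then share 1 spread per gene. The 2-fold and 0.05 thresholds follow the series text. The scripts were tested on simulated counts. Alternatives were other size factors, DESeq2, limma-voom with group weights, no filter, a replicate block, the 4 libraries compared alone, no fold minimum and each library left out.

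The 9 genes, the pathway and marker lists and the motifs were chosen with earlier results of these data known. All 9 are described, and other pathway genes are named where called or where a sentence on their list needs them. For likeness, the 5 genes with the highest Pearson correlation to each gene were taken, without Gm and Rik symbols.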

Additional observations from a re-analysis of the deposited data

Results flagged for a closer look

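The response of Pcx to induction differed between spheroids and flat culture by the test of the difference itself: it was -1.27 ± 0.18 on the log2 scale in 3D relative to 2D (adjusted p = 0.0379, edgeR's quasi-likelihood test, n = 2 libraries per group). Both 3D induced libraries, at 345 and 390 CPM, lay below both 2D induced libraries, at 730 and 714 CPM. The call did not hold without any 1 of the 6 libraries that are not 3D induced, where the value was -1.40 to -1.12 with an adjusted p of 0.133 to 0.381 (edgeR). The adipocyte markers and the mitochondrial share of counts also differed between these groups, and their part in the difference was not tested. Groups of 2 libraries are too small for a search for single outlying samples.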

How the results depend on the processing

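Calls near a threshold moved, and values that use the 3D induced group depended on which of its libraries was kept. With induction in 3D, leaving out 1 library gave log2 values of 0.06 to 1.06 for Mdh2, 0.24 to 0.68 for Suclg1 and 0.26 to 0.62 for Pdha1. Of 666 alternative values for the 9 genes, 608 kept their direction and side of the threshold, 18 gained a call, 21 lost one and 19 turned sign. The gains include those with no fold minimum, which changes the calling rule and not the fit. The 608 include values called neither in the main fit nor in the alternative, so they do not measure the stability of calls. The ratios within a library do not depend on scaling, filter or test, so the alternatives say little about them. The calls of Pcx and Idh3a with induction in 2D and of Slc25a1 in 3D induced against 2D induced cultures held under every alternative run. The 3D induced replicates varied most, and with 2 libraries per group the model borrows their spread for all groups. Errors and p-values of comparisons with the 3D induced group may therefore be too small, and those of other comparisons too large. Leaving out a library leaves 1 in its group, which is assumed to vary like the others. Counts of called genes over all genes moved most. The causes of these changes were not tested.

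With induction in 3D, 139 genes were called, against 240 with DESeq2, 78 with limma-voom, 336 with no filter and 0 with the 4 libraries alone (885 at an unadjusted p under 0.05), where 0 of the 9 genes were called. In 2D, 689 were called, against 1346 with limma-voom, 1354 with no fold minimum (7 of the 9 genes) and 1213 with the 4 libraries alone. For 3D against 2D without induction, no fold minimum gave 3215 genes and 2 of the 9, against 1440 and 0. With induction it gave 4379 genes and 7 of the 9, against 1892 and 2, and the 4 libraries alone gave 825 genes. In the interaction 58 genes were called, against 161 with DESeq2, 97 with limma-voom and 209 with no filter, each with 2 of the 9 genes.

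Values near 0 turned sign. Ogdh in 3D against 2D without induction was -0.0082 with DESeq2 size factors, -0.0081 with the DESeq2 test, -0.0058 with no filter and -0.0027 with the 4 libraries alone, and Mdh2 in 3D against 2D with induction was -0.044 with limma-voom and -0.0096 with the replicate block.

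Leaving out each library in turn gave 24 to 1225 called genes for induction in 3D, 225 to 1169 in 2D, 871 to 3025 for 3D against 2D with induction, 552 to 2170 without, and 1 to 686 in the interaction. Of the 9 genes it called 1 to 3 with induction in 3D, 1 to 3 in 3D against 2D with induction, and 0 to 2 in the interaction. Log2 values that turned sign ranged from -0.0077 to 0.20 for Slc25a1 with induction in 3D, from -0.54 to 0.46 for Mdh2 in 3D against 2D with induction, and without induction from -0.011 to 0.019 for Cs, -0.0075 to 0.11 for Idh3a and -0.12 to 0.12 for Ogdh. In the interaction they ranged from -0.19 to 0.17 for Pdha1 and from -0.80 to 0.20 for Mdh2.

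Deviations of same-numbered libraries correlated at 0.206 between the 3D uninduced and 3D induced groups. All other pairs of groups were at -0.0062 to 0.0265. The replicate numbers thus showed little pairing except between the 3D groups, where it was weak and was not tested. With the replicate number as a block, the calls among the 9 genes were 2 with induction in 3D, 3 in 2D, 2 and 0 for 3D against 2D with and without induction, and 0 in the interaction, where Pcx was at -1.27 with an adjusted p of 0.0577 (edgeR), and the calls over all genes were 114, 639, 1825, 1382 and 39 in this order.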
